A study of Mus musculus with 8 samples.

Results

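The 10 macrophage and dendritic cell genes followed here, called the panel, were *Itgax*, *Csf1r*, *Lyz2*, *Cd68*, *Adgre1*, *C1qa*, *C1qb*, *C1qc*, *Mertk* and *Cx3cr1*. The panel was read by all probe sets annotated to exactly one of these genes: 15 of the 45101 probe sets on the array, which name 18194 genes in all, with every one of the 10 genes represented. The RNA came from the Peyer's patches of C3H/Hej mice given ovalbumin (OVA) or saline by gavage for 28 days from 6 weeks of age. OVA, a hen egg protein used as a model food antigen, was given at 40 mg/kg per day, and saline was the vehicle of the controls. The 8 arrays, each labelled as a mouse with a number, fell into 4 groups: female control (mouse 7, n = 1), male control (mouse 8, n = 1), female OVA (mice 2 and 12, n = 2) and male OVA (mice 1, 5, 8 and 13, n = 4). No genetic modification is given for any group beyond the inbred strain, which is known to carry a defective Toll-like receptor 4. With 2 controls of different sex, each sex had a single saline reference, and p-values measured only the spread between these mice.

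Peyer's patches are lymphoid follicles of the small intestine that lie under a specialised epithelium and sample antigen from the gut lumen. Their macrophages and dendritic cells take up this material, clear dying B cells in the follicles and, in the case of dendritic cells, present antigen to T cells. The complement component C1q is made largely by tissue macrophages and is built from the A, B and C chains encoded by *C1qa*, *C1qb* and *C1qc*. CD68 and lysozyme M (*Lyz2*) are a lysosomal glycoprotein and a bacteriolytic enzyme of phagocytes, and MerTK is a receptor for the engulfment of apoptotic cells. The colony-stimulating factor 1 receptor (*Csf1r*) maintains macrophages, CX3CR1 binds the chemokine CX3CL1, and *Itgax* and *Adgre1* encode the surface markers CD11c and F4/80.

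The C1q genes were consecutive coding genes on chromosome 4 in the reference annotation, and *Lyz2* lay next to its paralog *Lyz1* on chromosome 10. Upstream sequences are shown for the panel genes whose 250 bases before the annotated start hold AGGAAGT on either strand, an extended form of the GGAA core bound by ETS-family factors such as the myeloid factor PU.1. Of the 10 genes, 7 were matched by symbol in the promoter table (*Csf1r*, *Adgre1* and *C1qa* were not), and *C1qb*, *C1qc* and *Lyz2* held the string, as did 7.69% of 32851 promoter windows of the same length. Sequences are from RefSeq, build GRCm38.p6, written 5′ to 3′ on the gene's strand, and capitals mark the string as read on the opposite strand.
C1qb (chr4:136886201-136886450, minus strand): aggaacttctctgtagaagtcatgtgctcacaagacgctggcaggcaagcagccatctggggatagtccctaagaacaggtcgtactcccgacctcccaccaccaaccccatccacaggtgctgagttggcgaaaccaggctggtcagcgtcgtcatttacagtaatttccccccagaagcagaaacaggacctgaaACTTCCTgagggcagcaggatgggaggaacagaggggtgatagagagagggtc
C1qc (chr4:136892915-136893164, minus strand): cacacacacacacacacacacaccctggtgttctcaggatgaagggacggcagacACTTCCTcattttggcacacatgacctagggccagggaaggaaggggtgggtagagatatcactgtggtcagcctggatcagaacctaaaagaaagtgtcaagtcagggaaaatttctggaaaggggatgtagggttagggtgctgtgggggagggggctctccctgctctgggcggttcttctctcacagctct
Lyz2 (chr10:117282273-117282522, minus strand): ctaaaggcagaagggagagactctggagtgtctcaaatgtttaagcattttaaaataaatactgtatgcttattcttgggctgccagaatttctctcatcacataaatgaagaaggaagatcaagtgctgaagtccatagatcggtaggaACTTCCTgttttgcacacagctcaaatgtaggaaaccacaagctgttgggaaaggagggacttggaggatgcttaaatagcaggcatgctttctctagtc
The string lay 53, 195 and 100 bases before the annotated start, in that order. Shorter strings nested in it or overlapping it were more frequent: GGAA occurred in all 7 windows and in 93.4% of all windows, and AGGAAG in the same 3 genes and in 29.5%. GAGGAA, which overlaps these, was found in *C1qb*, *C1qc* and *Cd68* and in 23.3% of windows. TGAGTCA, a binding string of AP-1 factors with no overlap with the others, was found in *Cd68* and *Itgax* and in 4.46%. The strings were chosen with these sequences in view, and a match is a description of letters only.

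No gene of the panel passed the test between OVA and control mice. With limma at an adjusted p of 0.05, 0 of the 14 probe sets past the intensity filter were called, and the same held for all probe sets tested (0 of 22518, 0%). Without adjustment 1 of the 14 (7.14%), *Cx3cr1*, had a p under 0.05, against 11.2% of all probe sets. Fitted differences were above 0 for *C1qa*, *C1qb*, *C1qc*, *Cd68* and *Lyz2* and below 0 for *Mertk*, *Csf1r*, *Cx3cr1*, *Itgax* and *Adgre1*. The sign turned for *C1qb*, *C1qc*, *Csf1r* and *Mertk* when single mice were left out. Without the male control the fitted difference is that in females alone, and without the female control that in males alone. The median over the 10 genes was 0.02 on the log2 scale, beside a median of 0.02 over the 11988 genes tested, of which 53.7% were fitted above 0. All 6 OVA mice lay above both controls for 0 of the 14 probe sets (8.36% of all probe sets) and below both for 0 (5.01%). In whole tissue a lower level from fewer cells and one from less RNA per cell cannot be told apart. Differences below are OVA minus control on the log2(intensity + 4.88) scale, adjusted for sex, with their standard error (SE), while levels are linear intensities and are compared only within a probe set.

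**Figure D1:**
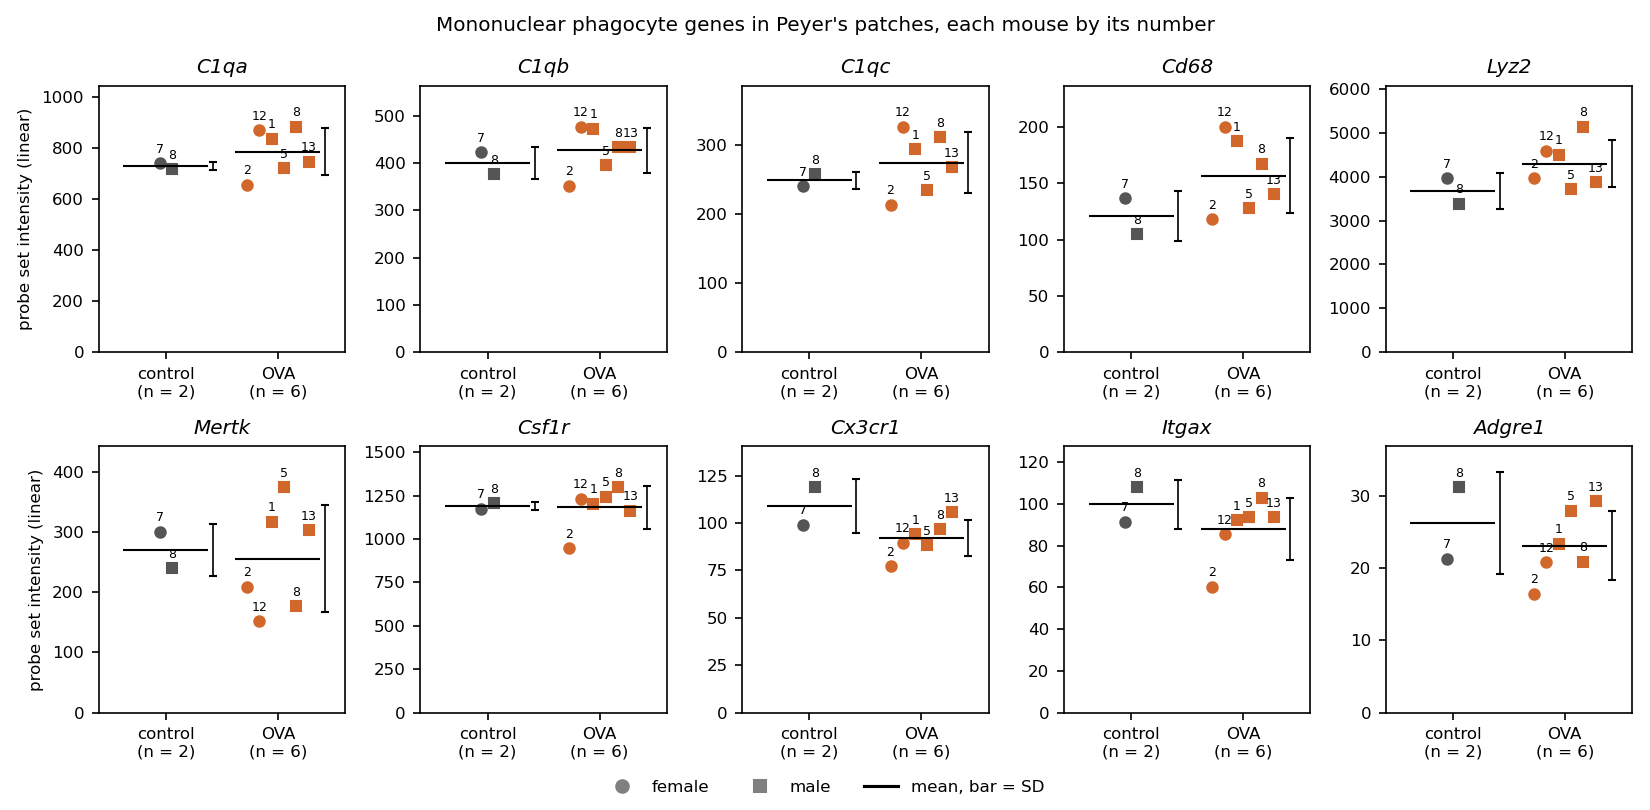
Linear intensity of the brightest probe set of each of the 10 genes in each mouse, with controls on the left and OVA mice on the right, each point labelled with its mouse number and each axis starting at 0. The groups overlap for every gene shown, and female OVA mouse 2 is the lowest point for 7 of the 10.

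The 3 C1q genes differed little between the treatments and varied together between mice. *C1qa* (probe set 1417381_at) read 738 in female control 7 and 716 in male control 8. In OVA mice it read 655 and 868 in females 2 and 12, and 834, 720.3, 882 and 745 in males 1, 5, 8 and 13. Of the OVA values, 4 were above both controls and that of female 2 was below both, so the groups overlapped. The fitted difference was 0.09 ± 0.14 (SE), with a 95% interval of -0.22 to 0.40 and an adjusted p of 0.797 (limma).

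*C1qc* (1449401_at), the C chain, had its lowest reading in the same mouse as *C1qa*. Controls read 240.0 (female 7) and 257 (male 8). The OVA mice read 213 and 326 in females 2 and 12, then 293, 234, 311 and 267 in males 1, 5, 8 and 13. Female 2 was again the lowest and female 12 the highest of the 8, with OVA values on both sides of the controls. The difference was 0.11 ± 0.17 (SE), adjusted p = 0.804 (limma).

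*C1qb*, the B chain, was read by 3 probe sets, which differed in the size of the OVA difference. The brightest, 1417063_at, read 423 and 376 in control female 7 and male 8, against 352 and 477 in OVA females 2 and 12 and 473, 395, 433 and 433 in males 1, 5, 8 and 13. Its difference was 0.09 ± 0.14 (SE), adjusted p = 0.814 (limma). The dimmer 1437726_x_at read 91.6 and 106 in the controls and 88.7, 137, 141, 144.5, 194 and 122 in the OVA mice in the same order. There 5 of 6 OVA mice lay above both controls and female 2 below both, with a difference of 0.37 ± 0.20 (SE) and an adjusted p of 0.502. The third, 1434366_x_at, had the same pattern of 5 above and 1 below, with 60.1 and 56.7 in controls, 55.7 to 73.1 in OVA mice, and a difference of 0.17 ± 0.12 (SE), adjusted p = 0.593 (limma). Probe sets of the x type can share probes with other transcripts, so these dimmer readings are less specific to *C1qb*.

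Lysosomal and bactericidal genes had the largest fitted differences upward among the brightest probe sets of the panel, and neither gene passed the test. *Cd68* (1449164_at) read 137 in female control 7 and 105 in male control 8. It read 118 and 200.3 in OVA females 2 and 12 and 187, 128, 167 and 140.1 in OVA males 1, 5, 8 and 13. Of the 6 OVA mice, 4 were above both controls and none was below both. The difference was 0.37 ± 0.22 (SE; 95% interval -0.13 to 0.86), a fold of 1.29, with an adjusted p of 0.527 (limma). An exact two-sided permutation test over the 28 assignments of 2 control arrays gave p = 0.214, where the smallest possible is 0.0357. The difference was 0.16 without the male control and 0.53 without OVA female 2.

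*Lyz2* (1423547_at) behaved alike, with 3956.5 and 3386 in controls and 3966 and 4588 in OVA females 2 and 12. OVA males 1, 5, 8 and 13 read 4495, 3709, 5137 and 3878. Mouse 8 of the OVA males was the highest of all and the male control the lowest. Group means were 3671 ± 403 (SD, n = 2) and 4295 ± 541 (SD, n = 6). The difference was 0.23 ± 0.15 (SE), adjusted p = 0.545 (limma), and 0.11 without the male control. Its paralog *Lyz1*, the lysozyme of Paneth cells, near-identical to *Lyz2* so that probes may read both, averaged 7558 ± 292 (SD, n = 2) without OVA and 7289 ± 314 (SD, n = 6) with it on 1436996_x_at. The difference there was -0.05 ± 0.09 (SE), adjusted p = 0.842 (limma). A dim *Lyz1* probe set, 1450822_at, read 4.67 to 7.38 over the 8 arrays and did not pass the filter.

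**Figure D2:**
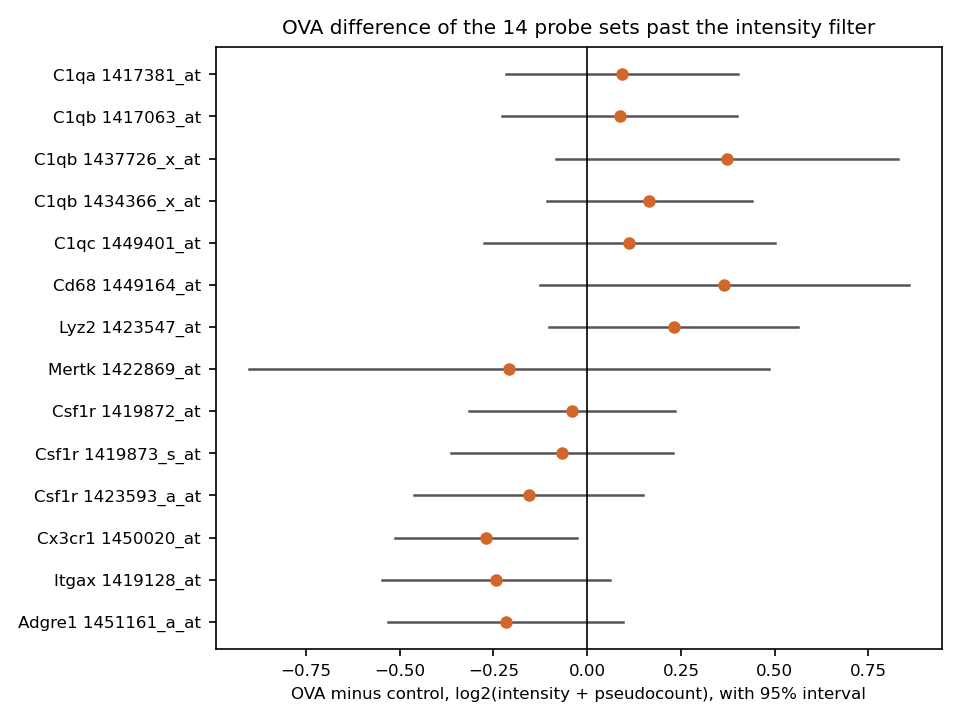
OVA minus control difference of the 14 probe sets past the intensity filter on the log2(intensity + pseudocount) scale, as points with 95% intervals from limma. The interval excludes 0 only for *Cx3cr1* (-0.51 to -0.03), whose adjusted p was 0.419.

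Lymphocyte and epithelial marker levels also varied between the mice and are set beside the C1q genes, *Cd68* and *Lyz2*. The B cell score, the mean log2 deviation of 19 B cell genes, was -0.30 and -0.44 in control female 7 and male 8. In OVA mice it was -0.06 and 0.60 in females 2 and 12 and 0.07, -0.20, 0.62 and -0.31 in males 1, 5, 8 and 13. The highest reading of each of these genes was in 1 of the 2 mice with the highest B cell scores: in female 12 for *Cd68*, *C1qc* and the brightest *C1qb* probe set, and in male 8 for *C1qa* and *Lyz2*. The parallel was partial, since *Cd68* and *C1qb* were higher in male 1 than in male 8, and female 2, lowest for the C1q genes, had a higher B cell score than both controls. These genes varied together, so their highest readings are not separate observations. Over all probe sets tested, female 12 was the highest array for 19.4% and male 8 for 21%. T cell genes were also highest in those mice (0.28 and 0.33), and epithelial barrier genes were lowest there (-0.22 and -0.45). All 19 B cell genes past the filter were fitted above 0 for OVA, with a median of 0.56, and 18 of 18 barrier genes below 0, with a median of -0.23, and 0 in either list were called. With the B cell score as a covariate, the differences became -0.11 for *C1qa*, -0.04 for *C1qb*, -0.15 for *C1qc*, 0.07 for *Cd68* and 0.0067 for *Lyz2*. Only OVA male 13 scored as low as a control, so score and treatment overlapped and this fit cannot separate them well. Without female 12 and male 8 the differences were -0.01 for *C1qa*, 0.01 for *C1qb*, -0.04 for *C1qc*, 0.21 for *Cd68* and 0.15 for *Lyz2*. The part of tissue makeup in the levels of these genes was not tested beyond these values.

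*Mertk* (1422869_at), the engulfment receptor, was the most variable gene of the panel, with a highest reading 2.47 times the lowest. Controls read 301 (female 7) and 240.2 (male 8). OVA females 2 and 12 read 209 and 152, both below both controls. OVA males 1, 5, 8 and 13 read 317, 375, 177 and 303, of which only mouse 8 lay below the controls. The difference over both sexes was -0.21 ± 0.30 (SE; 95% interval -0.90 to 0.49), adjusted p = 0.797 (limma). Within sex it was -0.74 ± 0.41 (SE) in females and 0.23 ± 0.37 (SE) in males, each against a single control. The interaction term, male effect minus female effect, was 0.97 ± 0.56 (SE), with an unadjusted p of 0.123 and an adjusted p of 0.702. *Mertk* was lowest in the 2 OVA mice with the highest B cell scores, and highest in OVA male 5. In that mouse the score of 3 adipocyte genes stood at 1.38, against -0.60 to 0.15 in the other 7. The enterocyte score was also lowest in female 12 (-0.45) and male 8 (-0.25). It was 0.15 in male 5, below the 0.21 of female control 7. The part of either score in the *Mertk* readings was not tested.

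Genes around apoptotic cell clearance were fitted on both sides of 0. Of 28 genes in the list, 25 passed the filter, 10 with a fitted difference above 0 and 15 below, with a median of -0.08, and 0 were called. Of all genes tested, 53.7% were fitted above 0. Unadjusted p (limma) was under 0.05 for 8% of the 25, against 10.2% of all genes tested. *Panx1*, a channel through which dying cells release nucleotides, read 218 and 264 in controls and 193, 182, 193, 167, 180.0 and 202 in OVA females 2 and 12 and males 1, 5, 8 and 13. All 6 OVA mice were below both controls, as for 5.01% of all probe sets. The *Panx1* difference was -0.37 ± 0.11 (SE), unadjusted p = 0.0101 and adjusted p = 0.39 (limma). *Timd4*, a phosphatidylserine receptor of resident macrophages, showed the opposite order. Controls read 59.5 and 49.6, OVA females 73.0 and 110.2, and OVA males 80.1, 74.2, 138 and 70.5. Every OVA mouse was above both controls, as for 8.36% of all probe sets. The 2 mice with the highest B cell scores were again the highest for *Timd4*. Its difference was 0.67 ± 0.25 (SE), adjusted p = 0.413 (limma). *Pros1*, which encodes protein S, a bridging ligand of MerTK, averaged 92.4 ± 0.66 (SD, n = 2) without OVA and 74.7 ± 13.6 (SD, n = 6) with it, with a difference of -0.34 ± 0.16 (SE) and an adjusted p of 0.457. The other MerTK ligand, *Gas6*, named here after its values were seen, had a difference of -0.31 ± 0.15 (SE). The *Panx1* difference was -0.22 without the male control, and that of *Pros1* -0.21 without the female control.

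*Csf1r* levels were close in controls and OVA mice on its brightest probe set (1419872_at). The controls read 1174.5 and 1205. OVA females 2 and 12 read 948 and 1232, and OVA males 1, 5, 8 and 13 read 1204, 1243, 1299 and 1162.5. Apart from female 2 the OVA mice spanned the controls closely, and the highest of the 8 readings was 1.37 times the lowest. The difference was -0.04 ± 0.12 (SE), with a 95% interval of -0.32 to 0.23 and an adjusted p of 0.905 (limma). The other *Csf1r* probe sets gave -0.07 ± 0.13 (SE) on 1419873_s_at, a type shared between transcripts, and -0.16 ± 0.14 (SE) on 1423593_a_at, where the controls read 164 and 174 and 5 of the 6 OVA mice, at 122 to 162, lay below both.

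*Cx3cr1* (1450020_at), a receptor typical of resident gut macrophages, was the one panel gene with an unadjusted p under 0.05. It read 99.0 in female control 7 and 119 in male control 8, against 77.2 and 89.6 in OVA females 2 and 12 and 94.2, 88.2, 96.8 and 106 in OVA males 1, 5, 8 and 13. Of the 6 OVA mice, 5 were below both controls, and male 13 lay between them. Means were 109 ± 14.1 (SD, n = 2) and 91.9 ± 9.47 (SD, n = 6). The difference was -0.27 ± 0.11 (SE; 95% interval -0.51 to -0.03), a fold of 0.829, with an unadjusted p of 0.033 and an adjusted p of 0.419 (limma). The exact two-sided permutation test gave p = 0.143. Without OVA male 13, the only OVA mouse between the controls, every OVA mouse lay below both controls. The permutation p was then 0.0476, the smallest possible over 21 assignments. That value follows from which mouse was left out and adds no support. A second probe set, 1450019_at, read only 4.70 to 8.09 and did not pass the filter.

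The ligand of this receptor, *Cx3cl1*, had the same direction. Controls read 93.2 and 120.1, OVA females 71.4 and 75.8, and OVA males 84.2, 78.7, 57.8 and 97.9. Again 5 of 6 OVA mice were below both controls, the exception being male 13. The difference was -0.47 ± 0.18 (SE), unadjusted p = 0.0274 and adjusted p = 0.413 (limma). It was -0.32 without the male control and -0.59 without the female control. *Cx3cl1* was highest in male control 8 and lowest in OVA male 8, where the epithelial barrier score was also highest (0.33) and lowest (-0.45). That parallel was partial, since OVA female 2, at 71.4, had a score of 0.10. The part of tissue makeup in the *Cx3cl1* readings was not tested. Of the 12 ligands and receptors of phagocyte growth and recruitment, 9 passed the filter, 7 fitted above 0 and 2 below, and 0 were called. Unadjusted p (limma) was under 0.05 for 11.1% of the 9, against 10.2% of all genes tested. *Csf1*, a ligand of the CSF1 receptor, had a difference of 0.13 ± 0.12 (SE), adjusted p = 0.672 (limma). *Il34*, the other ligand of that receptor, read at most 13.1 and did not pass the filter, nor did *Ccl7*, a monocyte chemokine, at most 8.99. *Flt3*, a growth factor receptor of dendritic cell precursors, had 76.6 ± 1.23 (SD, n = 2) and 97.1 ± 24.7 (SD, n = 6), a difference of 0.33 ± 0.21 (SE). The GM-CSF gene *Csf2* gave -0.22 ± 0.14 (SE), and its receptor chains *Csf2ra*, *Csf2rb* and *Csf2rb2* gave 0.14 ± 0.12, 0.15 ± 0.23 and 0.03 ± 0.25 (SE). *Ccl2*, the ligand of CCR2 on monocytes, gave 0.06 ± 0.12 (SE). Without the male control *Csf2* was at -0.44 and *Flt3* at 0.54, and without the female control at -0.04 and 0.16. *Csf1* was at 0.07 without OVA female 12, and signs turned for *Csf2rb*, *Csf2rb2* and *Ccl2* when single mice were left out.

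*Itgax* and *Adgre1*, like *Cx3cr1*, had no OVA mouse above both controls. *Itgax* (1419128_at) read 91.4 and 108 in female control 7 and male control 8. It read 60.3 and 85.5 in OVA females 2 and 12 and 92.2, 93.6, 103 and 93.5 in OVA males 1, 5, 8 and 13. Both OVA females lay below both controls and all OVA males between them. The difference was -0.24 ± 0.13 (SE; 95% interval -0.55 to 0.06), adjusted p = 0.509 (limma), exact permutation p = 0.429, and the difference was -0.14 without OVA female 2. *Adgre1* (1451161_a_at) read 21.3 and 31.2 in the controls, 16.4 and 20.8 in OVA females, and 23.4, 27.9, 20.9 and 29.3 in OVA males. In all, 3 OVA mice were below both controls, with a difference of -0.22 ± 0.14 (SE) and an adjusted p of 0.545.

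Several of these genes read lower in females than in males without passing the test. For the sex term, 0 of the 14 probe sets were called, against 12 of 22518 (0.0533%), and 2 of 14 had an unadjusted p under 0.05, against 5.41% of all probe sets. These were *Adgre1*, with 19.5 ± 2.69 (SD, n = 3) in females and 26.5 ± 4.28 (SD, n = 5) in males, and *Itgax*, with 79.0 ± 16.5 (SD, n = 3) and 98.1 ± 7.04 (SD, n = 5). Female minus male differences were -0.39 ± 0.12 (SE, unadjusted p = 0.0122) and -0.34 ± 0.12 (SE, unadjusted p = 0.0189), each with an adjusted p of 0.901 (limma). For *Itgax* all 3 females lay below all 5 males, as for 1.89% of probe sets, and no panel probe set had all females above all males (0.733% of probe sets). Without OVA female 2 the *Itgax* difference was -0.18. For *Cx3cr1* the difference was -0.21 ± 0.10 (SE), unadjusted p = 0.0545 (limma). The OVA effect itself was not called as different between the sexes for any of the 14 probe sets, nor for any probe set tested (0%), and 0 of the 14 had an unadjusted interaction p under 0.05, against 8.2%.

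OVA female 2 was low in the panel and in most other phagocyte lists. It gave the lowest reading for 7 of the 10 genes, while over all probe sets it was the lowest array for 12%. Male control 8, a different sample from OVA male 8, was the lowest for 2 genes and OVA female 12 for 1. The highest readings were divided between male control 8, OVA female 12 and OVA male 8 with 3 genes each (these arrays were highest for 17.3%, 19.4% and 21% of all probe sets) and OVA male 5 with 1. The mean deviation of the 10 genes was -0.29 in OVA female 2 and between -0.01 and 0.13 in the other 7 mice. This mouse was also lowest for the mean of other macrophage (-0.14), monocyte and neutrophil (-0.16) and complement genes (-0.16). The same held for the growth and recruitment (-0.15) and clearance lists (-0.12), but not for dendritic cell genes. Several panel genes varied together, so the 7 lowest readings are not separate observations.

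**Figure D3:**
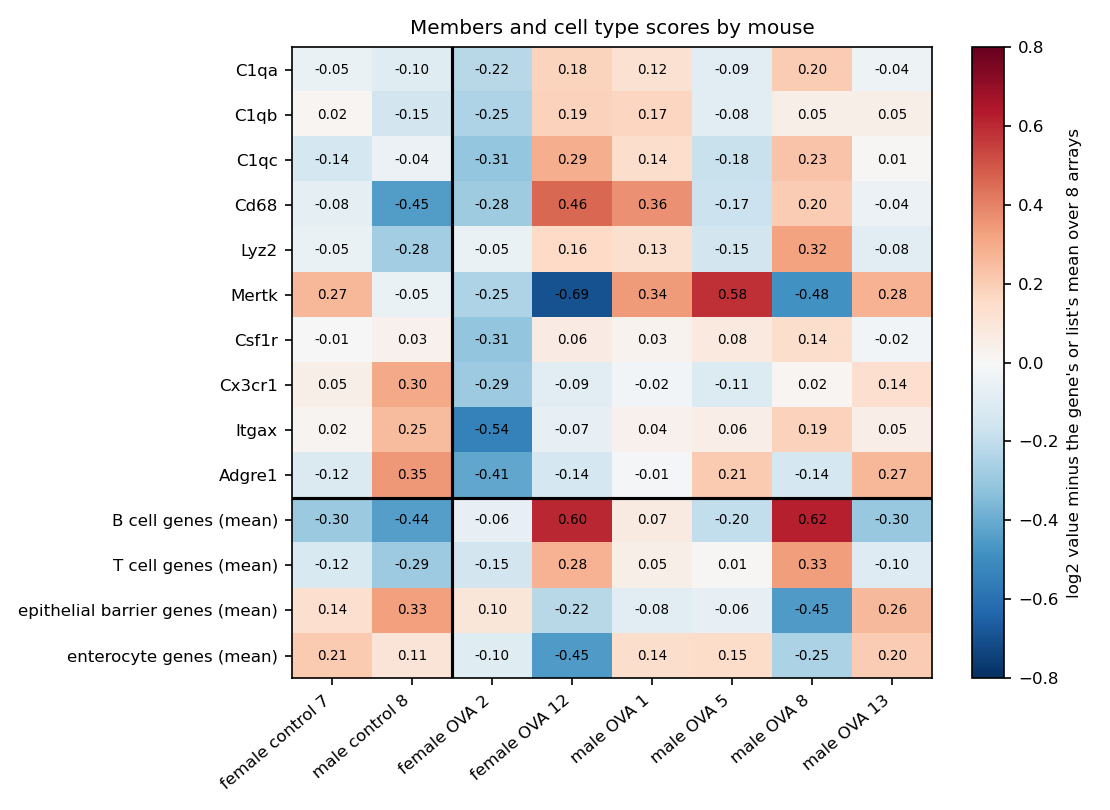
Colour map of the log2 value of each panel gene and of each cell type score in each of the 8 mice, minus its mean over the 8 arrays. *C1qa*, *C1qc*, *Cd68* and *Lyz2* are above their means in OVA female 12, OVA male 1 and OVA male 8, with *C1qb* near its mean in male 8 (0.05). In female 12 and male 8 the B cell score is 0.60 and 0.62 and the barrier score -0.22 and -0.45, and OVA female 2 is low for most panel genes.

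Several panel genes varied together over the mice. *C1qa* and *C1qc* had a Pearson r of 0.958 over the 8 arrays, *C1qa* and *C1qb* 0.867, and *Cd68* 0.883 with *C1qa* and 0.915 with *C1qb*. *Lyz2* had 0.842 with *Cd68*. *Itgax* had 0.887 with *Csf1r* and 0.827 with *Cx3cr1*, but *Csf1r* had 0.509 with *Cx3cr1* and was closer to *C1qa* (0.727), *C1qc* (0.684) and *C1qb* (0.616), and *Lyz2* and *Adgre1* had -0.554. Of the 45 pairs, 10 (22.2%) were above 0.8, beside 3.54% of all pairs of tested genes. The arrays in each pair share tissue makeup and treatment, so these values are descriptions.

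The genes with the profile most like the mean of the C1q genes over the 8 arrays were *Msrb2* (r = 0.971), a methionine sulfoxide reductase, *Atp6v0e* (0.96), a subunit of the vacuolar proton pump, *Fxyd2* (0.956), a regulator of the sodium pump, *Grcc10* (0.954), *Nfkbia* (0.948), an inhibitor of NF-κB, *Cst3* (0.938), the protease inhibitor cystatin C, *Iscu* (0.935), an iron-sulfur scaffold, and *Rps10* (0.934), a ribosomal protein. *Cst3* read 1393 and 1383 in the controls, 1207 and 1561 in OVA females 2 and 12, and 1495, 1387, 1544 and 1502 in OVA males 1, 5, 8 and 13, with the same lowest and highest mouse as *C1qc*. Most like *Itgax* were *Vasp* (r = 0.977), a regulator of actin filaments, *Klhdc8b* (0.972), *Snhg11* (0.965), *Tspan31* (0.958), a tetraspanin, and *Hax1* (0.954), an inhibitor of apoptosis. *Vasp* read 590.5 and 637 in controls, 438 and 525.5 in OVA females, and 569, 596, 614 and 602 in OVA males, with OVA female 2 the lowest as for *Itgax*. All 5 were least close without OVA female 2, where r was 0.894 for *Vasp*, 0.862 for *Klhdc8b*, 0.8235 for *Snhg11*, 0.855 for *Tspan31* and 0.701 for *Hax1*. Both sets were picked as the highest r among all genes tested over 8 arrays, so high values follow from the choice. *Fxyd2*, *Klhdc8b* and *Snhg11* read close to the filter level of 11.9.

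Other macrophage genes divided almost evenly between the directions. Of 26 in the list, 21 passed the filter, 10 fitted above 0 and 11 below, with a median of -0.03, and 0 were called. Unadjusted p (limma) was under 0.05 for 4.76% of the 21, against 10.2% of all genes tested. *Marco*, a scavenger receptor for bacteria, read 24.6 and 23.9 in controls, 28.6 and 36.5 in OVA females, and 36.2, 29.8, 45.2 and 28.9 in OVA males. All 6 OVA mice were above both controls, with a difference of 0.40 ± 0.17 (SE), unadjusted p = 0.0399 and adjusted p = 0.428 (limma). *Fcgr1*, the high-affinity IgG receptor, gave -0.32 ± 0.15 (SE), and *Spi1*, which encodes PU.1 and is also expressed in B cells, gave 0.36 ± 0.18 (SE). The *Fcgr1* difference was -0.60 without the male control and -0.09 without the female control.

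Dendritic cell genes were mostly fitted above 0: 14 of the 18 past the filter (of 21 listed), with a median of 0.11, where 53.7% of all genes tested lay above 0, and 0 were called. Unadjusted p (limma) was under 0.05 for 5.56% of the 18, against 10.2% of all genes tested. *Clec10a*, a lectin of dendritic cells and macrophages, averaged 18.9 ± 2.08 (SD, n = 2) without OVA and 26.2 ± 4.57 (SD, n = 6) with it, 5 OVA mice being above both controls. Its difference was 0.32 ± 0.12 (SE), unadjusted p = 0.0278 and adjusted p = 0.413 (limma). *Fscn1*, an actin-bundling protein of mature dendritic cells, gave 0.72 ± 0.33 (SE) with 323 ± 74.8 and 550.4 ± 209 (SD), and *Cd40*, which B cells also express, gave 0.46 ± 0.22 (SE). *Fscn1* and *Cd40* were highest in male 8 and female 12, the mice with the highest B cell scores, while *Clec10a* read 24.3 and 23.8 there and 29.2 to 30.5 in males 1, 5 and 13. Of genes named after their values were seen, *Ccr6* (0.55), *Ccr7* (0.53) and *Cd83* (0.48) were also highest in male 8 and female 12. *Xcr1* (0.10), *Clec4a2* (0.04), *Siglech* (0.02), *Sirpa* (0.01), *Batf3* (-0.004), *Cd209a* (-0.14) and *Itgae* (-0.23) were near or below 0. The count above 0 thus mixes different patterns, and a shift of dendritic cells was not tested. With the B cell score as a covariate the differences were 0.36 for *Clec10a*, 0.10 for *Fscn1* and 0.05 for *Cd40*. Leaving out 1 control moved *Fscn1* from 0.41 (without the male) to 0.97 (without the female) and *Cd40* from 0.28 (without the female) to 0.69 (without the male).

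Monocyte and neutrophil genes were mostly dim. Of 13 genes with a probe set, 4 passed the filter. *Plac8*, found in monocytes, plasmacytoid dendritic cells and some B cells, gave -0.12 ± 0.13 (SE), *Ccr2*, a receptor of recruited monocytes, 0.13 ± 0.18 (SE), and *Il1b*, a proinflammatory cytokine, -0.06 ± 0.13 (SE). *Ccr2* was at 0.01 without the male control, and the signs of *Plac8* and *Il1b* turned when single mice were left out. The neutrophil genes *S100a8* and *S100a9* read at most 22.2 and 28.5 and did not pass the filter.

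Among 17 complement genes past the filter, 11 were fitted above 0 and 6 below, with a median of 0.04, and 0 were called. Unadjusted p (limma) was under 0.05 for 5.88% of the 17, against 10.2% of all genes tested. *C2*, a component that follows C1 in the classical pathway, averaged 125 ± 30.6 (SD, n = 2) without OVA and 86.1 ± 17.7 (SD, n = 6) with it, 5 OVA mice being below both controls. Its difference was -0.54 ± 0.21 (SE), unadjusted p = 0.03 and adjusted p = 0.415 (limma). *Clu*, which encodes the complement inhibitor clusterin, gave 0.39 ± 0.20 (SE) with all 6 OVA mice above both controls, as for 8.36% of all probe sets. It was highest in OVA male 8 (5072) and female 12 (4629), the mice with the highest B cell scores. *Cd55*, a surface inhibitor of complement, gave 0.25 ± 0.13 (SE). Without the male control the *C2* difference was -0.29 and that of *Cd55* 0.07, and without the female control they were -0.75 and 0.39.

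**Figure D4:**
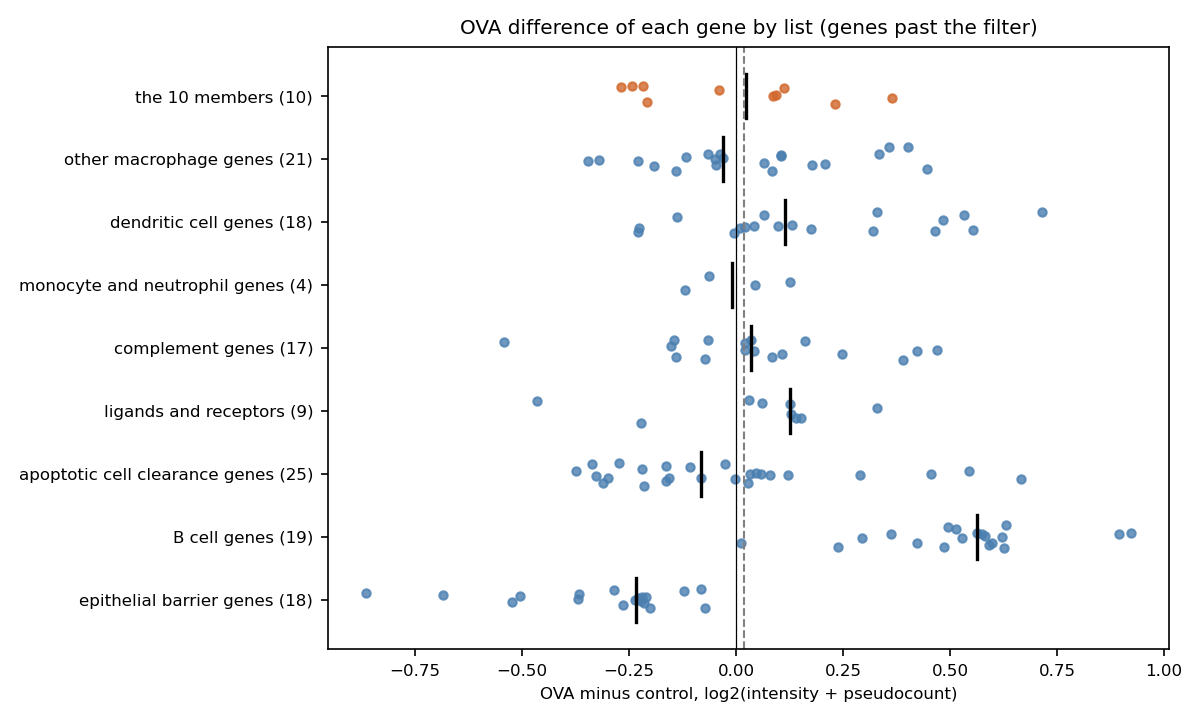
OVA minus control difference of each gene past the filter on the log2(intensity + pseudocount) scale, one row of points per list of genes. The panel genes lie on both sides of 0 with a median of 0.02, while the B cell list has its median at 0.56 and the barrier list at -0.23.

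The tissue label was checked against other cell types, since one protocol text speaks of parietal cortex whereas the tissue label gives Peyer's patches. B cell, germinal centre, T cell and enterocyte genes all passed the filter where they had a probe set (59 of 59). Of 11 neuron and glia genes 8 did not pass it, and the microglia genes *P2ry12*, *Sall1*, *Gpr34* and *Fcrls* read at most 14.9. In the same list 4 other genes did pass, among them *Tmem119*, at 46.4 in controls and 37.8 in OVA mice on average. The panel genes are shared by macrophages of many tissues and do not separate macrophages from dendritic cells, *Itgax* and *Cx3cr1* being expressed by both.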

How the data were processed

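Total RNA of 8 mice was read on a one-colour Affymetrix mouse array. The deposited values are linear probe set intensities made by the authors with MAS5, per the submitters' processing notes; its version and scaling target are not stated there. Equal values on at least 2 arrays were held by 51.5% of the probe sets, and trimmed array means ran from 65.1 to 68.2, so how probes were summarised was not settled. No scan batch is given, and precision is limited by having 8 arrays.

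Values were taken to log2(intensity + 4.88), the added value being the 25th percentile, with no further scaling. The 22518 probe sets above the median (11.9) outside the 64 control probe sets were tested with limma 3.58.1 in R 4.3.3 (treatment plus sex, 5 residual degrees of freedom; 4 group means for the interaction), with Benjamini-Hochberg adjustment over all of them and a threshold of 0.05. Exact permutation tests took the difference of the means. Probe set names came from the platform annotation: 34958 had 1 symbol, 932 several and 9211 none. Panel and lists were chosen with earlier results of these data known. Where several tested probe sets named only 1 gene, the one with the highest mean stood for it in lists and medians. Named genes were all panel probe sets, the 3 with the smallest p for OVA in each phagocyte list, all ligands and receptors past the filter, *Lyz1*, and the 8 and 5 genes most correlated with C1q and *Itgax*. Genes named outside this rule were the label-check genes, *Gas6* and the further dendritic cell genes. *Il34*, *Ccl7*, *S100a8* and *S100a9*, which did not pass the filter, were also outside it. Promoters were read with Python 3.11.15. The procedure was tested on simulated data. Alternatives were the pseudocount, scaling, filter, variance model, array weights, sex term, left-out arrays and, added after the data were seen, a B cell score.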

Additional observations from a re-analysis of the deposited data

Results flagged for a closer look

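Over the 14 probe sets past the filter, Dixon's criterion was applied to the 4 male OVA mice and to the 6 OVA mice of both sexes, on log2 values, and 4 of 28 sets of values held a mouse far from the others. Chance gives about 1 in 20 for separate sets. These sets share mice, and some share a gene or come from genes that vary together, so the count is not a test. For *Itgax*, male OVA 8 (102.8) stood above the other males by 0.868 of their range, and over both sexes female OVA 2 (60.26) stood below the rest by 0.654 of the range. For *Csf1r*, female OVA 2 (947.9) was low on 1419872_at by 0.647 of the range, and male OVA 8 (186) was high among the males on 1423593_a_at by 0.863. So 2 of the 4 were female OVA 2 and 2 were male OVA 8, the mouse with the highest B cell score (0.62).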

How the results depend on the processing

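No probe set was called for OVA under any alternative run. Of 481 values under alternatives other than leaving out 1 mouse, 457 kept their direction and 24 turned. Of 314 values with 1 mouse left out, 301 kept their direction and 13 turned. None passed the threshold in any run, so these counts follow direction only. Many of the values come from genes that vary together. The cause of the turns was not tested. The sex count of 12 became 4 with the filter at the 75th percentile (range 4 to 14 over the alternatives). With quantile normalization *Lyz1* became 0.026, and with array weights *Csf2rb2* became -0.14. In females alone *C1qb* was -0.0465, *Csf2rb* -0.031 and *Csf2rb2* -0.27, and in males alone *Csf1r* was 0.025, *Mertk* 0.23 and *Plac8* 0.070. Each of these values equals that with the control of the other sex left out, so these turns are in both the 24 and the 13. With the B cell score as a covariate, *C1qa* was -0.11, *C1qb* -0.036, *C1qc* -0.15, *Mertk* 0.28, *Ccr2* -0.16, *Flt3* -0.068, *Csf2ra* -0.0068, *Csf2rb* -0.27, *Csf2rb2* -0.38 and *Ccl2* -0.10. Without female OVA 12 and male OVA 8 together, *C1qa* was -0.012, *C1qc* -0.045, *Mertk* 0.066, *Csf2rb* -0.035, *Csf2rb2* -0.16 and *Ccl2* -0.024. These last 2 alternatives were chosen after seeing the data. With 1 mouse left out at a time, the differences ran from -0.12 to 0.042 for *Csf1r*, -0.0465 to 0.20 for *C1qb*, -0.0054 to 0.23 for *C1qc*, -0.74 to 0.23 for *Mertk*, -0.13 to 0.011 for *Il1b*, -0.35 to 0.070 for *Plac8*, -0.031 to 0.30 for *Csf2rb*, -0.27 to 0.28 for *Csf2rb2* and -0.00064 to 0.13 for *Ccl2*. The interaction of *Cd68* ran from -0.0019 without female OVA 2 to 0.74 without female OVA 12. Panel genes with an exact permutation p under 0.05 numbered 0 to 1 when a mouse was left out. The 1 was *Cx3cr1* without male OVA 13, the only OVA mouse between the controls for that gene. The fitted differences of *Cd68*, *Lyz2*, *Cx3cr1*, *Itgax* and *Adgre1* kept their sign under every alternative run, and the panel median ran from -0.12 with the B cell score to 0.12 without the female control. The interaction could not be fitted without either control, and without a control the exact test cannot pass 0.05. No paired analysis was possible because the groups share only 1 mouse number, 8, in the labels.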
